A study of Mus musculus with 22 samples.

Results

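The ribosomal protein (RP) genes encode the proteins that, with the ribosomal RNAs, build the small 40S and the large 60S subunit of the cytosolic ribosome. They were taken as protein-coding genes whose symbol carries the Rpl or Rps name of a cytosolic ribosomal protein, without pseudogenes and without *Rps6*, the substrate that gives S6 kinase its name. The rule found 79 genes among 55401 gene identifiers, 31 of the 40S and 48 of the 60S subunit. Low counts removed *Rpl3l* and *Rpl10l*, paralogs best known from striated muscle and testis, which had 17 and 2 counts over all libraries, and the other 77 genes were tested.

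RP transcripts are among the most abundant in growing cells, and ribosomal protein that is not assembled is degraded. Many start with a cytidine followed by a run of pyrimidines, the TOP motif, which couples their translation to the mTORC1 kinase. S6K1 and S6K2, encoded by *Rps6kb1* and *Rps6kb2*, act downstream of mTORC1 and phosphorylate RPS6, and the steady-state transcript levels measured here do not report translation.

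RNA-seq libraries came from primary mouse embryonic fibroblasts (MEFs) in serial passage, which the study continued until WT cells stopped dividing. The study reports that *S6K1* KO and *S6K1/S6K2* DKO cells arrested earlier than WT cells. The part of this difference in the RP values was not tested. The S6K1 set held 4 early WT libraries at passage 3, 4 late WT libraries at passage 8 and 3 late *S6K1* KO libraries at passage 8. The S6K1/S6K2 set held 4 early WT libraries at passage 3, 4 late WT libraries at passage 8 and 3 late *S6K1/S6K2* DKO libraries at passage 8. MEFs are a mixed primary culture from whole embryo tissue without head and viscera, the gene deletions were carried from the germ line, and the WT controls of the DKO cells came from other mothers, so genotype and litter cannot be told apart there. *Rps6kb1* was 62.5 ± 7.25 CPM (read counts scaled to the library total, SD, n = 4) in late WT and 19.7 ± 5.81 CPM (n = 3) in late KO cells. *Rps6kb2* was 13.4 ± 2.91 CPM (n = 4) in late WT and 0.824 ± 0.538 CPM (n = 3) in late DKO cells.

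Total counts were 10742454 to 17314832 per library. All 9 fibroblast markers were detected in each group, and their sum was 1.87% to 4.19% of counts. The 17 macrophage markers that could be matched summed to 421 to 2003 CPM in early WT, 5086 to 12905 CPM in late WT, 3539 to 4437 CPM in KO and 954 to 3254 CPM in DKO libraries. None of the 17 was at 0 in any group, and all 17 were called higher in late WT in both sets. Y-linked transcripts exceeded 1 CPM in 2 of 4 early WT, 1 of 4 late WT and 3 of 3 KO libraries of the S6K1 set, and in 2 of 4, 3 of 4 and 1 of 3 libraries of the S6K1/S6K2 set, in the same order of groups. The part of these differences in the RP values was not tested beyond the fits that carry Y-linked expression as a covariate.

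RefSeq windows around the transcription start (GRCm38.p6) were available for 59 of the RP genes, and a run of at least 6 C or T within 5 bases of the start was present in 28 of them, 47.5%, against 21% of the windows of all 27025 genes. Runs of at least 10 were present in 22% of RP genes and 5% of all genes. The letters CTTCCG, the core of an ETS-type site, were found on either strand within the 300 bases (250 before to 50 after the start) of 67.8% of RP genes and 17.2% of all genes, whereas TATAAA was found in 8.47% and 14.2%. These are matches of letters and not mapped sites. The 5 windows printed here, each with 30 bases before and 20 after the annotated start, belong to the gene called in the S6K1 set, to 2 short genes that followed the mean of the other RP genes steeply from library to library, and to 2 long genes that did not follow it, and capitals mark a run of at least 6 pyrimidines that reaches within 5 bases of the start.
*Rpl15*, chr14:18270967-18271016, minus strand: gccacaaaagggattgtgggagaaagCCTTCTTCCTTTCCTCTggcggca
*Rpl37a*, chr1:72711230-72711279, plus strand: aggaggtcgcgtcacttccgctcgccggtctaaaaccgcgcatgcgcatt
*Rps21*, chr2:180257349-180257398, plus strand: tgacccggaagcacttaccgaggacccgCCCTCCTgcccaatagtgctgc
*Rpl4*, chr9:64173357-64173406, plus strand: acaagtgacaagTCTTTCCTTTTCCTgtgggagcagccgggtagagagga
*Rplp0*, chr5:115559437-115559486, plus strand: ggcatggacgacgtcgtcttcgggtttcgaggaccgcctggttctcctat
*Rpl15* and *Rpl4* carried runs of 17 and 14 pyrimidines, that of *Rpl4* wholly upstream of the annotated start, and *Rps21* one of 7. *Rpl37a* and *Rplp0* had no such run near the annotated start, although their transcripts may start at other bases in these cells.

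RP genes took 5.05% to 10.3% of all counts, a 2.04-fold range over the 22 libraries. Per kilobase of coding sequence, the highest means over all libraries were those of *Rplp1* (8599 CPM per kb), *Rps12* (7234), *Rps24* (5947) and *Rps20* (5660), and the median of the 77 genes was 1652 CPM per kb with quartiles of 1050 and 2355. *Rplp1* encodes one of the acidic proteins of the 60S stalk, which recruits the elongation factors, and its partner *Rplp2* stood at 3794 and their anchor *Rplp0* at 1823 CPM per kb. In all, 74 genes had a mean above 100 CPM. The other 3 were *Rpl24* (11.7 CPM), *Rpl39l* (7.41 CPM) and *Rps10* (4.65 CPM). *Rpl24* and *Rps10* encode proteins of every ribosome, and how reads shared with RP pseudogenes or overlapping transcripts were counted is not given in the sources used here, so their rows are uncertain.

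**Figure D1:**
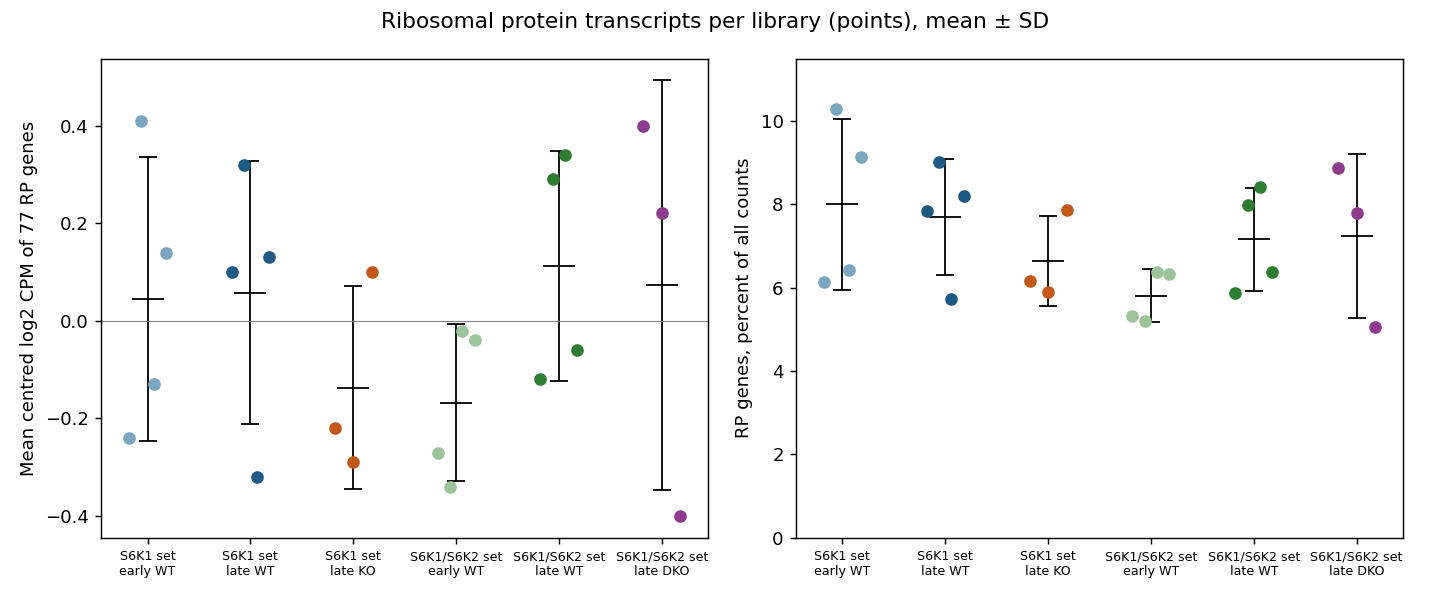
Left, the mean centred log2 CPM of the 77 RP genes in each library (points), with each gene centred on its mean over the 11 libraries of its MEF set; right, the percent of all counts on RP genes. Bars show the group mean ± SD, and all groups that are compared overlap.

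The summary value of a library was the mean centred log2 CPM of the 77 genes. Late minus early WT was 0.01 (pooled SD 0.28) in the S6K1 set and 0.28 (pooled SD 0.20) in the S6K1/S6K2 set. KO minus late WT was -0.19 (pooled SD 0.25), and DKO minus late WT was -0.04 (pooled SD 0.32). Only for passage in the S6K1/S6K2 set did the difference exceed the pooled SD within groups. In the S6K1 set, early WT libraries had values of -0.24, 0.41, -0.13 and 0.14, late WT libraries 0.10, 0.32, -0.32 and 0.13, and KO libraries -0.22, -0.29 and 0.10. Each group held libraries above and below 0, and the 3 ranges overlapped. In the S6K1/S6K2 set, early WT libraries had -0.27, -0.34, -0.02 and -0.04, late WT libraries -0.12, 0.29, 0.34 and -0.06, and DKO libraries 0.40, 0.22 and -0.40. All 4 early WT values were below 0, and 2 of 4 late WT values lay above every early WT value. The plot of values by group shows that a single DKO library held the lowest and another the highest value of its set.

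In the S6K1 set the 6 libraries with Y-linked transcripts had summary values of -0.32 to 0.10, and the 5 without them 0.10 to 0.41. In the S6K1/S6K2 set the same split gave -0.34 to 0.34 in 6 libraries and -0.40 to 0.40 in 5. The single late WT library of the S6K1 set with Y-linked transcripts had -0.32, beside -0.29 to 0.10 in the KO libraries, all of which had them.

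**Figure D2:**
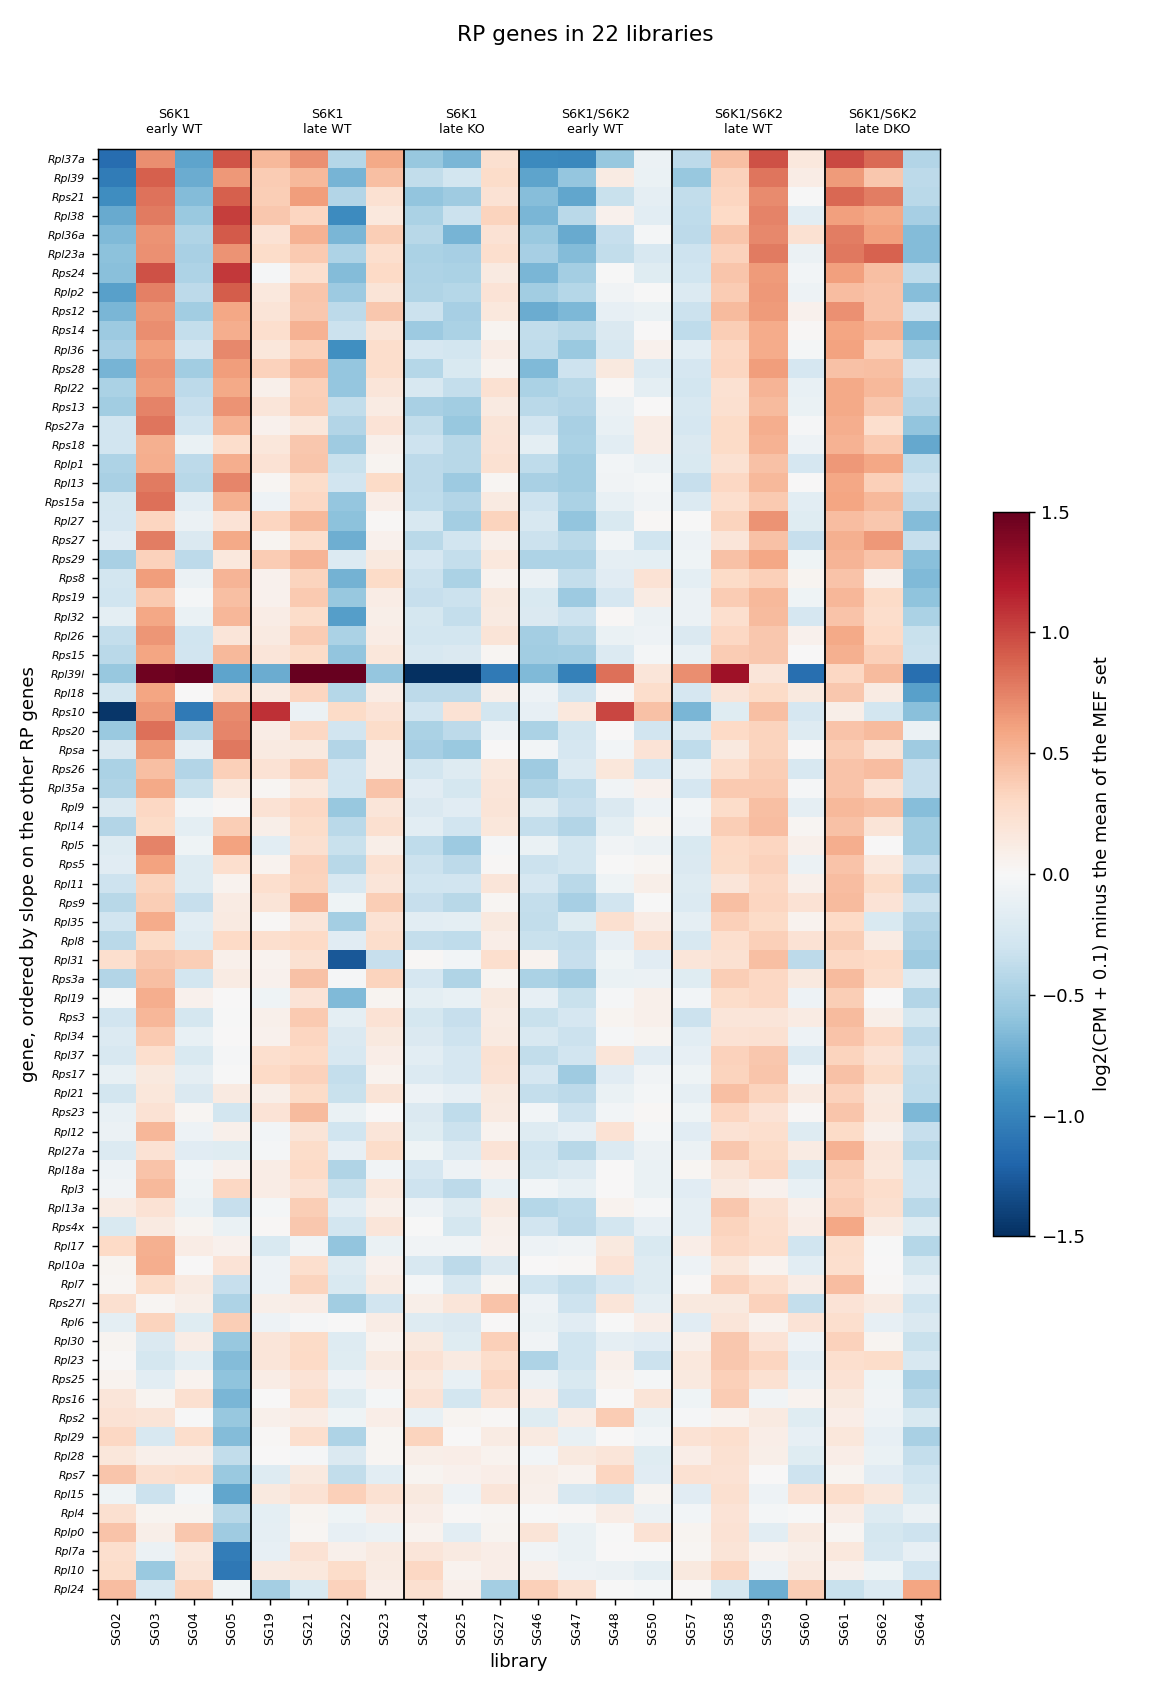
Rows are RP genes, ordered by their slope on the mean of the other RP genes, and columns are the 22 libraries by group; colour is log2 CPM minus the mean of the MEF set. Whole columns are red or blue over most rows, and the bottom rows, from *Rpl15* to *Rpl24*, do not follow the rest.

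Most RP genes moved together from library to library, so counts of RP genes above or below 0 are not counts of independent values. After subtraction of the group means, 54 of the 77 genes had a Pearson r above 0.8 with the mean of the other RP genes over the 22 libraries (median r 0.91), 6 had 0.5 to 0.8, 12 had 0 to 0.5 and 5 had a negative r. Among the 14809 other genes tested in all libraries, 2.28% had an r above 0.8 with the RP mean, and the median was -0.26. All these values come from the same libraries and share their depth and composition, and they are given as a description. Of 74 mitochondrial RP genes, which build the separate ribosome of mitochondria, 23 exceeded 0.8 and the median r was 0.63. The SD within groups had a median of 0.33 log2 units over RP genes and 0.35 over all genes tested, which were not matched to them for abundance.

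The size of the movement differed between RP genes. *Rpl37a*, a small zinc-binding protein of the 60S subunit, changed 2.27 log2 units for each unit of the mean of the others, *Rpl39* 2.08, *Rps21* 2.02 and *Rpl38* 2.01. *Rpl4* (0.02), *Rpl15* (0.04) and *Rplp0* (-0.04) were nearly flat, and *Rpl10* (-0.33) and *Rpl24* (-1.2) went the other way. The highest slopes belonged to genes with short coding sequences. The 10 genes with the highest slopes had coding sequences of at most 471 bp, and Spearman's rho between slope and coding length was -0.52 across the 77 genes, which are not independent of each other. The median slope was 1.46 in 10 genes of up to 300 bp, 1.17 in 46 genes of 300 to 600 bp, 0.85 in 18 genes of 600 to 900 bp and 0.02 in 3 longer genes. Among other genes, the median r with the RP mean was 0.32 up to 300 bp (308 genes), 0.08 up to 600 bp (1491 genes), -0.11 up to 900 bp (1844 genes) and -0.39 above (9343 genes), so short genes outside the family also followed it more than long ones. With a smooth trend on coding length, fitted to the other genes of each library, taken out, the summary values still ran from -0.38 to 0.43. The cause of the length trend was not tested. Slopes did not sort by the start site, with a median of 1.02 in 28 genes with a run of at least 6 pyrimidines and 1.16 in 29 without.

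**Figure D3:**
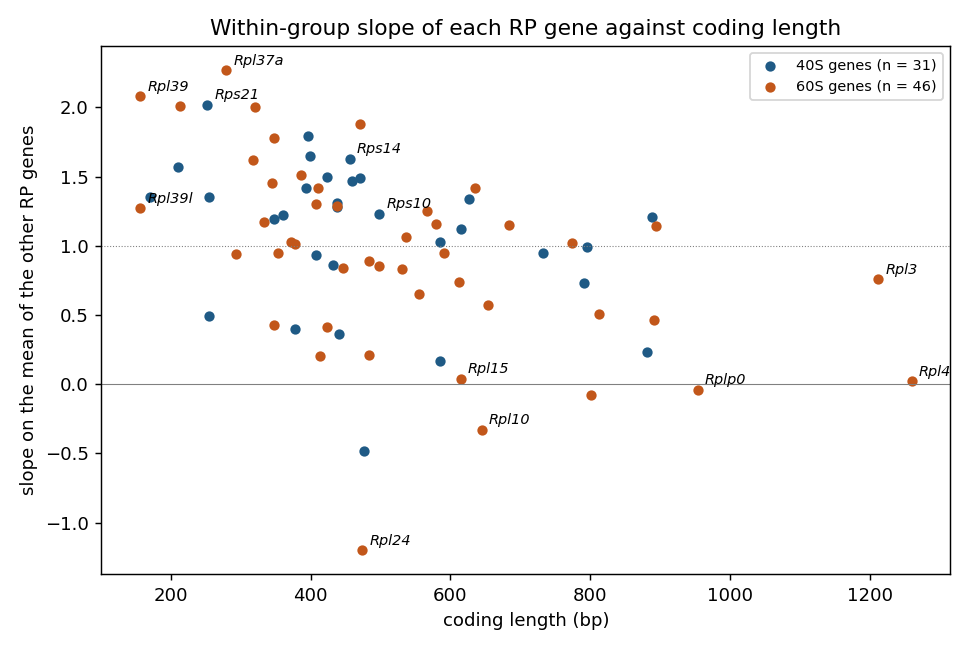
Each point is an RP gene, with its coding length in bp against its within-group slope on the mean of the other RP genes (log2 units per log2 unit; the dotted line marks a slope of 1). Slopes near 2 are found below 480 bp, and *Rpl4* and *Rplp0*, among the longest, lie near 0.

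The spread is clearest in single genes. *Rpl37a* was 372, 1326, 475 and 1574 CPM in early WT and 1151, 1317, 612 and 1212 CPM in late WT libraries of the S6K1 set. Its 2 highest and 2 lowest early WT libraries differed more than the groups did, and the groups overlapped. *Rpl4* was 2407, 2089, 2084 and 1524 CPM in early WT and 1840, 2092, 1944 and 2197 CPM in late WT libraries of that set. *Rps14*, a 40S protein whose transcript served the study as the reference in RT-qPCR, ran from 831 to 2642 CPM over the 22 libraries, a 3.18-fold range. Within the early WT group of the S6K1 set alone *Rps14* was 1114, 2642, 1273 and 2380 CPM. It had the tenth highest slope of the 77, at 1.63, and an r of 0.95.

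Passage was compared first in the S6K1 set, late WT against early WT. A single RP gene, *Rpl15*, rose, and the rest of the family gave no call by the edgeR quasi-likelihood F test after adjustment over all genes (Benjamini-Hochberg), while 12.9% of the 14132 genes tested were called. *Rpl15*, a core protein of the 60S subunit, was 213, 177, 218 and 129 CPM in early WT and 246, 259, 285 and 260 CPM in late WT libraries. The groups did not overlap, and the log2 fold change was 0.51 ± 0.14 (SE), with an edgeR adjusted p of 0.0316. The call was lost, with adjusted p-values of 0.0531 to 0.0755, when any of 6 libraries was left out (SG03 or SG05 of early WT, SG19, SG21, SG22 or SG23 of late WT). Its values in KO cells were 245, 210 and 253 CPM, and KO against late WT cells gave an edgeR adjusted p of 0.8.

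At an unadjusted p under 0.05, 3 RP genes were found against 27.6% of all genes. These were *Rpl15*, *Rpl23* (0.36 ± 0.16) and *Rpl17* (-0.51 ± 0.19, edgeR adjusted p of 0.0982). CPM of late and early WT did not overlap for 2 RP genes, *Rpl15* and *Rpl17*, against 17.0% of all genes. *Rpl17* was 1204, 1426, 1058 and 1029 CPM in early WT and 841, 948, 653 and 916 CPM in late WT libraries, the late ones all lower. The median log2 fold change was -0.07 over the 77 genes, with 31 above 0 and 46 below, and -0.04 over all genes. Its sign depended on single libraries, since it was 0.07 without SG03, 0.05 without SG05 and 0.11, with 56 genes above 0, without SG22, and -0.17 without SG02, SG04 or SG21. Other fitted values at the high end were those of *Rpl39l* (0.63 ± 0.77), *Rpl10* (0.39 ± 0.21) and *Rps10* (0.37 ± 0.51), and at the low end those of *Rpl31* (-0.51 ± 0.28), *Rps24* (-0.49 ± 0.43), *Rpl5* (-0.40 ± 0.28) and *Rps27* (-0.39 ± 0.32). None of these passed the test. The stalk genes *Rplp0*, *Rplp1* and *Rplp2* had -0.22 ± 0.18, -0.08 ± 0.34 and -0.26 ± 0.42. *Rpl11*, whose protein joins that of *Rpl5* in the 5S particle, had 0.13 ± 0.24, and *Rps27a*, *Rps27l*, *Rps4x*, *Rpl36a*, *Rpl39* and *Rps14* lay between -0.29 and 0.12. With Y-linked expression as a covariate 13 RP genes were called, 2 higher (*Rpl15* and *Rpl10*) and 11 lower, where 3288 of 14132 genes were called. The median over RP genes became -0.23 in that fit, beside -0.02 over all genes. With the coding-length trend removed *Rpl17* alone was called, lower, where 1674 of 12733 genes were called. The median over RP genes was then -0.22, with 14 genes above 0 and 63 below, beside -0.05 over all genes.

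**Figure D4:**
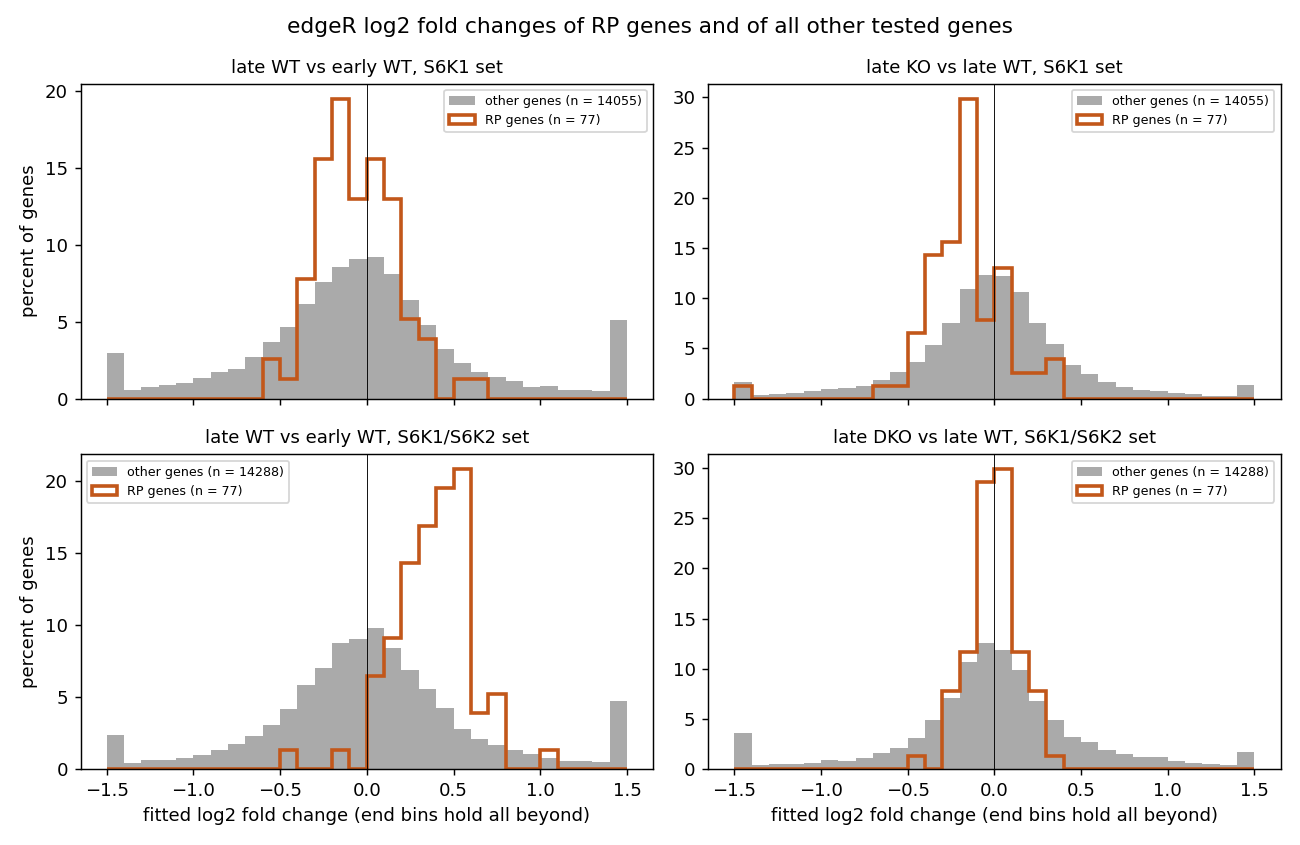
Distribution of edgeR log2 fold changes for the 77 RP genes (line) and all other tested genes (grey) in the 4 comparisons, as percent of genes per bin, with values beyond the axis in the end bins. RP genes lie mostly above 0 for passage in the S6K1/S6K2 set, and mostly below 0 for KO against late WT cells.

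In the S6K1/S6K2 set, 1 RP gene rose with passage, and the fitted values of the others, which did not pass the test, lay mostly above 0. The log2 fold change was above 0 for 75 of 77 genes, with a median of 0.41, beside 0.01 over all genes. These genes are not independent of each other, and the summary values of early and late WT libraries overlapped. The median was 0.24 without SG59 and 0.31 to 0.49 when any other library was left out. The medians were 0.41 for the 31 genes of the 40S and 0.36 for the 46 of the 60S subunit. The call was made for *Rpl7* alone, where 13.2% of 14365 genes were called. At an unadjusted p under 0.05 there were 17 RP genes, all higher, or 22.1%, against 31.0% of all genes. That count was 1 without SG46 or SG47, 2 without SG58, 3 without SG59 and 16 to 25 without any other library. The share of all genes at that threshold was not computed for these fits. Calls over all genes at the adjusted threshold were 885, 911, 1103 and 1146 without SG46, SG47, SG58 and SG59, against 1892 with all libraries. The CPM did not overlap for 3 RP genes (*Rpl7*, *Rpl7a* and *Rps29*), against 19.7% of all genes.

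*Rpl7*, a 60S subunit protein, was 831, 796, 861 and 897 CPM in early WT and 1037, 1303, 1216 and 1106 CPM in late WT libraries. All late values were above all early ones, and the log2 fold change was 0.54 ± 0.16, with an edgeR adjusted p of 0.0478. Leaving out any 1 of the 8 libraries ended the call, with adjusted p-values of 0.0503 to 0.145. The highest fitted values were those of *Rpl37a* (1.06 ± 0.39, edgeR adjusted p of 0.0911), *Rpl36a* (0.78 ± 0.34), *Rpl23a* (0.76 ± 0.35), *Rps21* (0.76 ± 0.32) and *Rps12* (0.72 ± 0.30), 5 genes of the 10 with the highest slopes. *Rpl37a* was 334, 331, 434 and 608 CPM in early WT and 492, 887, 1255 and 719 CPM in late WT libraries, so that the groups overlapped in 1 early and 1 late library. Among the lowest were *Rps10* (-0.47 ± 0.34), *Rpl24* (-0.17 ± 0.23), *Rps2* (0.01 ± 0.17) and *Rps7* (0.05 ± 0.16). The median fell to 0.13 with the coding-length trend removed, a fit in which 63 genes were above 0 and 14 below and no RP gene was called.

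The acidic stalk showed the same order as the slopes, with 0.54 ± 0.29 for *Rplp2*, 0.41 ± 0.27 for *Rplp1* and 0.06 ± 0.15 for *Rplp0*. *Rpl5* and *Rpl11*, which with the 5S RNA bind MDM2 and stabilise p53, had 0.34 ± 0.22 and 0.33 ± 0.23. *Rps27a*, a fusion of ubiquitin with a 40S protein, had 0.43 ± 0.27, and *Rps4x*, an X-linked gene, 0.50 ± 0.19. The other X-linked genes *Rpl10*, *Rpl36a* and *Rpl39* had 0.28 ± 0.13, 0.78 ± 0.34 and 0.63 ± 0.34, and *Rps27l*, *Rpl39l* and *Rps14* had 0.25 ± 0.19, 0.55 ± 0.56 and 0.51 ± 0.30. None of these passed the adjusted test. Late WT libraries were also those with the higher macrophage marker sums, 7743 to 12905 CPM against 633 to 2003 CPM in early WT, and their part in the RP values was not tested. In bulk libraries a change in the share of a cell type and a change in RNA per cell cannot be told apart.

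The difference in passage effect between the sets was tested as an interaction over all 22 libraries. The median over RP genes was 0.37 higher in the S6K1/S6K2 set, with 70 genes above 0 and 7 below, and 0.24 to 0.51 higher when 1 library was left out (0.24 without SG22). None of the 77 passed edgeR's adjusted test or that of DESeq2, and 2 genes (*Rpl17* and *Rpl31*) had an unadjusted p under 0.05, against 0.712% and 9.55% of all genes. Leaving out SG02 or SG04 took the count of RP genes at an unadjusted p under 0.05 to 9 or 5. The share of all genes at that threshold was not computed for these fits. No single RP gene was therefore shown to differ in its passage effect, and single interaction terms carried a median SE of 0.36. The shift of the family as a whole was not tested. With Y-linked expression as a covariate the median was 0.49, with 70 genes above 0 and 7 below. No RP gene was called in that fit, where 102 of 14886 genes were.

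*S6K1* KO cells were compared with late WT cells of their set. No RP gene was called by edgeR, where 6 of 14132 genes were (0.0425%). The fitted values leaned low, with 60 genes below 0, 17 above and a median of -0.16, beside -0.01 over all genes. The median was -0.38 without SG27, -0.34 without SG22, -0.07 without SG25 and -0.06 without SG21. Mitochondrially encoded transcripts took 0.704% to 0.857% of counts in late WT libraries, 1.16% to 1.4% in KO libraries and 1% to 1.7% in early WT libraries of the set, and the macrophage marker sums were 5086 to 10753 CPM in late WT and 3539 to 4437 CPM in KO libraries. Neither range overlapped between late WT and KO libraries, and their part in the RP values was not tested. At an unadjusted p under 0.05 there was 1 gene, *Rpl39l*, against 10.6% of all genes, and the CPM did not overlap for 4 RP genes (*Rpl39l* and *Rpl10a* lower, *Rpl28* among those higher), against 12.3% of all genes. *Rpl10a* was 325, 408, 300 and 357 CPM in late WT and 289, 261 and 295 CPM in KO libraries, and *Rpl28* was 595, 584, 509 and 605 CPM and 628, 632 and 616 CPM. With Y-linked expression as a covariate the median turned to 0.35, with 69 genes above 0, beside a median of -0.02 over all genes. There 27 RP genes had an unadjusted p under 0.05, but the share of all genes at that threshold was not computed for this fit. No RP gene was called in it, where 37 of 14132 genes were. All KO libraries and 1 late WT library had Y-linked transcripts, and the covariate in that fit also drew on the early WT libraries, 2 with and 2 without them.

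*Rpl39l*, a paralog of the tunnel protein gene *Rpl39* best known from the testis, had the lowest fitted value. It was 2.81, 29.5, 22.3 and 3.14 CPM in late WT and 1.19, 0.745 and 2.22 CPM in KO libraries, with at least 12 counts in each. The late WT libraries fell into 2 high and 2 low ones, and all 4 were above all KO libraries. The log2 fold change was -3.34 ± 0.99, with an edgeR adjusted p of 0.268. DESeq2 called the gene with an adjusted p of 0.0442, in a fit where 239 of 15502 genes were called. Early WT libraries had 3.18, 13.3, 18.1 and 2.7 CPM, also 2 high and 2 low ones, and in the S6K1/S6K2 set the gene was 2.22 to 12.2 CPM in late WT and 2.23 to 6.98 CPM in DKO libraries. *Rpl39* itself was 845, 908, 400 and 882 CPM in late WT and 499, 536 and 780 CPM in KO libraries, with -0.31 ± 0.50.

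**Figure D5:**
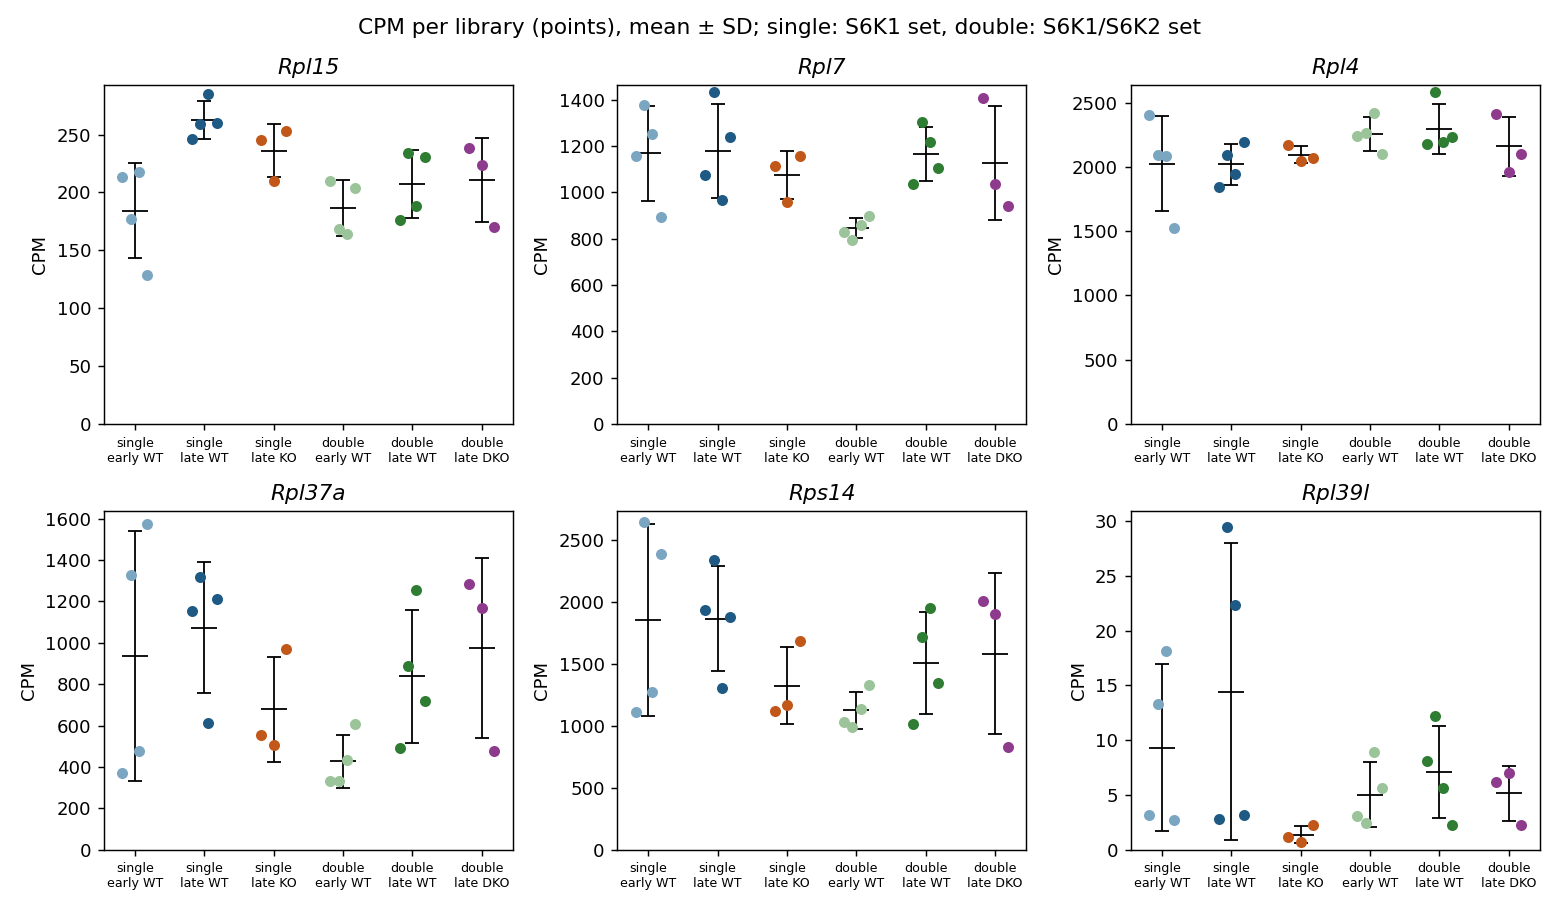
CPM of *Rpl15*, *Rpl7*, *Rpl4*, *Rpl37a*, *Rps14* and *Rpl39l* in each library (points) by group, with group mean ± SD (4 WT or 3 knockout libraries). Early and late WT cells do not overlap for *Rpl15* in the S6K1 set and *Rpl7* in the S6K1/S6K2 set, and *Rpl37a* and *Rps14* are spread widely inside most groups.

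Other fitted values in KO cells included at the high end those of *Rps27l* (0.38 ± 0.20, edgeR adjusted p of 0.551), a p53-responsive paralog of *Rps27*, *Rpl31* (0.31 ± 0.30), *Rpl17* (0.23 ± 0.20) and *Rps7* (0.21 ± 0.20). At the low end were *Rpl37a* (-0.64 ± 0.54), *Rps10* (-0.54 ± 0.55), *Rps9* (-0.48 ± 0.28) and *Rps21* (-0.48 ± 0.50). *Rps27l* was 378, 385, 248 and 292 CPM in late WT and 377, 403 and 479 CPM in KO libraries, with overlap. *Rplp0*, *Rplp1* and *Rplp2* of the stalk had 0.08 ± 0.19, -0.25 ± 0.36 and -0.27 ± 0.45. *Rpl5* and *Rpl11* had -0.25 ± 0.31 and -0.25 ± 0.26, *Rps27a* -0.21 ± 0.35, and the X-linked *Rpl10*, *Rpl36a* and *Rps4x* 0.00 ± 0.22, -0.40 ± 0.47 and -0.15 ± 0.22. *Rps14* had -0.47 ± 0.38, with 1936, 2337, 1307 and 1872 CPM in late WT and 1118, 1169 and 1683 CPM in KO libraries.

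In *S6K1/S6K2* DKO cells the family was centred on its level in late WT cells. The median log2 fold change was 0.00, with 39 genes above 0 and 38 below, and ran from -0.18 to 0.24 when 1 library was left out. No RP gene was called by edgeR or DESeq2, where 4.78% of 14365 genes were called by edgeR. Neither did any reach an unadjusted p under 0.05 or non-overlapping CPM, against 18.4% and 15.5% of all genes. Without SG64, 5 RP genes had an unadjusted p under 0.05, but the share of all genes at that threshold was not computed for that fit. The SE of a fitted value was 0.14 to 0.62 with a median of 0.24, so changes of moderate size in single genes would not have been called. *Rpl4*, with one of the smaller errors, had -0.07 ± 0.15. *Rps14*, with 1015, 1715, 1950 and 1343 CPM in late WT and 2006, 1900 and 831 CPM in DKO libraries, had 0.10 ± 0.32.

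The highest fitted values in DKO cells were those of *Rps21* (0.32 ± 0.35), *Rplp1* (0.30 ± 0.29), *Rps27* (0.29 ± 0.27), *Rpl23a* (0.28 ± 0.37) and *Rpl37a* (0.24 ± 0.41). The lowest were *Rpl39l* (-0.43 ± 0.62), *Rps25* (-0.22 ± 0.19), *Rpl35* (-0.22 ± 0.23), *Rplp0* (-0.21 ± 0.16) and *Rpl29* (-0.21 ± 0.17). The X-linked genes *Rpl10*, *Rpl36a*, *Rpl39* and *Rps4x* had -0.20 ± 0.14, 0.10 ± 0.36, 0.04 ± 0.37 and 0.08 ± 0.21. *Rplp2*, *Rpl5*, *Rpl11* and *Rps27l* had -0.03 ± 0.31, -0.03 ± 0.24, 0.06 ± 0.25 and -0.04 ± 0.21, and *Rps27a* stood at 0.00 ± 0.30. In the same comparison 16 of the 17 macrophage markers were called lower. The difference between the DKO and KO effects had a median of 0.23 over RP genes, which ran from 0.00 without SG61 to 0.49 without SG64 and was -0.05 with Y-linked expression as a covariate. None passed the adjusted test by edgeR or DESeq2, and *Rpl39l* alone had an unadjusted p under 0.05, against 0.00672% and 10.9% of all genes.

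Genes that share tasks with the RP genes were read in the same fits. The 19 translation factor and other TOP transcripts had median log2 fold changes of -0.05 and 0.12 for passage in the S6K1 and the S6K1/S6K2 set, and of -0.04 in both KO and DKO cells. Of 25 ribosome biogenesis genes, 1 fell with passage in the S6K1 set (*Nop56*, a protein of the box C/D particles that modify ribosomal RNA, -0.54 ± 0.15, edgeR adjusted p of 0.035), where 12.9% of all genes were called. In DKO cells 24 of the 25 had fitted values below 0 with a median of -0.22, and none was called. Of 74 mitochondrial RP genes, 2 rose with passage in the S6K1 set and 4 in the S6K1/S6K2 set, *Mrpl34* (0.60 ± 0.16 and 0.81 ± 0.20) and *Mrps6* (0.68 ± 0.19 and 0.81 ± 0.23) in both, and 1 (*Mrpl40*, -0.54 ± 0.12) fell in DKO cells. In these comparisons 12.9%, 13.2% and 4.78% of all genes were called. The 27 RP pseudogenes tested gave no call in the 4 comparisons, against 12.9% and 13.2% of all genes for passage, 0.0425% in KO and 4.78% in DKO cells, and their medians were -0.21 and 0.41 for passage in the S6K1 and the S6K1/S6K2 set, beside -0.07 and 0.41 for the RP genes themselves. Summed over 140 annotated pseudogene rows, they were 75.3 to 262 CPM per library, with 75.3 CPM in the late WT library of the S6K1 set that had the lowest RP summary value and 256 CPM in the early WT library that had the highest.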

How the data were processed

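Per the labels and the study's methods, poly(A) RNA of serially passaged MEFs was sequenced as single-end reads. The deposited values are raw counts per gene, with no normalization by the authors. The study's methods name TopHat, HTSeq and mm9, whereas the submitters' processing notes list STAR 2.7.1a, DESeq2 1.28.1 and mm10. Of 15108 identifiers with 100 or more counts, 7.9% were absent from the NCBIM37 (mm9) annotation of GENCODE vM1. Which pipeline made the counts was not settled, so no coordinates of the counts were used. Each library was 1 replicate. Labels do not say which libraries share an embryo or mother, so p-values measure the spread between these libraries. Among 30 pairs of libraries of a group, chi-square per degree of freedom was at least 18.8, so none was counted as a duplicate.

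Symbols came from a table that named 32589 of the identifiers (96.98% of counts). CPM used library totals. Genes were filtered by filterByExpr, TMM-scaled and tested with the quasi-likelihood F test of edgeR 4.0.16 (R 4.3.3) within each set, with adjustment over all genes tested and a threshold of 0.05. Interactions used all 22 libraries. Scripts were tested on simulated data. DESeq2 1.42.0 was an alternative. Log2 CPM used a prior count of 2. Coding lengths, from GENCODE vM1, covered 88.1% to 90.1% of genes tested. Slopes are least squares on the mean of the other RP genes after subtraction of group means. Members and lists were chosen with earlier results of these data known. Named genes are the 5 highest and 5 lowest fitted values of each comparison, the genes of set roles, and members counted in groups of at most 5. Genes named for slope or level were chosen after their values were seen. *Rpl41* was not analysed here, and some genes that these rules select are not reported here.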

Additional observations from a re-analysis of the deposited data

Results flagged for a closer look

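Dixon's test was applied to RP values in the WT groups of 4 libraries, 136 sets of values in all, and 1 had a library far from the others, where chance gives about 1 in 20. *Rpl39* was 400 CPM in 1 late WT library of the S6K1 set and 845 to 908 CPM in the other 3. The same library had the lowest RP summary value of its group, -0.32, and was the only one of the 4 with Y-linked transcripts.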

How the results depend on the processing

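The RP calls were few and depended on the processing. For passage in the S6K1 set, 1 gene was called as reported. Library totals alone gave 0, where 1578 of 14132 genes were called. No filter on low counts also gave 0, where 1574 of 27733 genes were. The Y-linked covariate gave 13, where 3288 of 14132 genes were called. Leaving out a library gave 0 to 1, where 1223 of 14020 (without SG22) to 1749 of 14030 genes (without SG02) were called. For passage in the S6K1/S6K2 set, 1 was called as reported. DESeq2 gave 2, where 2768 of 15888 genes were called, and the compared groups alone 2, where 1807 of 13670 were. RLE scaling gave 0 (1940 of 14365 genes called), all 6 groups in the fit 0 (2008 of 14886) and the Y-linked covariate 0 (1528 of 14365). With the coding-length trend removed (an alternative chosen after seeing the data) 0 were called, beside 1866 of 12883 genes. Whichever library was left out, 0 were called, beside 885 of 14249 (without SG46) to 2247 of 14289 genes (without SG50). For KO cells DESeq2 called 1, in a fit where 239 of 15502 genes were called, against 6 of 14132 by edgeR as reported. All other alternatives gave 0 there. For DKO cells every alternative run gave 0, where 97 (without SG62) to 1186 genes (DESeq2) were called. Both interactions also gave 0 in every alternative run, where 78 to 218 genes were called for passage and 1 to 63 for knockout. The cause of these changes was not tested. Differences of the mean centred log2 CPM kept within 1 SD of the reported values under the 12 or 13 alternatives run for each, which did not include the Y-linked covariate. They ranged from -0.15 to 0.14 and 0.13 to 0.36 for passage in the S6K1 and S6K1/S6K2 sets, from -0.32 to -0.11 for KO and from -0.21 to 0.20 for DKO cells. The ranges for passage in the S6K1 set and for DKO cells held both signs. The reported differences of these comparisons were smaller than the pooled SD, so staying within 1 SD did not require the sign to hold. Among the named genes no called value changed sign, but few values were called. Of 1365 values of named genes under the alternatives, 117 changed sign, 21 lost a call and 9 gained one. No paired analysis was possible because the labels give no number shared between groups. Per the study's methods *S6K1* WT and KO cells were littermates, a structure that the unpaired tests do not use. Depth was not limiting for most RP genes, while *Rps10*, *Rpl24* and *Rpl39l* rest on few counts.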
